A study of Homo sapiens with 30 samples.

Results

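The outer borders of kept lamina domains are 409 bins of 100 kb that lie next to, but outside, stretches of the genome that touched the nuclear lamina throughout the cell cycle. They were chosen by the deposited domain lists of HCT116 cells, as bins of the 22 autosomes (hg19) covered in none of G1, S and G2 and lying 1 or 2 bins away from a bin covered in all 3 stages. A bin counted as covered where at least 50% of it lay in a stage's domains. A bin covered in all 3 stages is called kept below. The border made up 1.42% of 28823 autosomal bins, gaps of the assembly included, or 40.8 Mb on 21 chromosomes, beside 4487 kept bins. The start of 396 genes, of 25765 placed on autosomal bins, fell in it.

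The series mapped DNA near the lamina in HCT116, a human colorectal carcinoma line, and RNA in HEK293FT, a human embryonic kidney line. Cells of both lines received, by Lipofectamine 2000 transfection, a construct joining APEX2, a peroxidase that labels nearby molecules, to lamin B1. The domains come from 12 samples of G1, S and G2 cells, either lamina pulldown or input DNA, deposited as 1 list per stage. RNA was extracted with Trizol and depleted of ribosomal RNA from asynchronous cells in 4 groups of 2 libraries: a nuclear fraction, a cytosolic fraction, and RNA labelled at the lamina in a native and in a paraformaldehyde (PFA) fixed preparation. Every group carried the construct, and the labels name no untransfected control. Place in the genome and RNA level were thus read in different cell lines.

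The nuclear lamina is a meshwork of lamins under the inner nuclear membrane, and the chromatin that touches it forms long domains known to hold few genes, little transcription and repressive histone marks. The edges of such domains are known in other cells to be sharp and to hold CpG islands and active promoters that point away from the domain. CpG islands are stretches rich in the dinucleotide CG, found at the promoters of many widely expressed genes.

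The promoters below belong to border genes with much RNA or next to long kept runs, and were not chosen to stand for all borders. They are the first 6 with a RefSeq entry, in genome order, among the border genes with the highest RNA level per length and the genes nearest to the edge of the 5 longest kept runs. Added to them are 2 promoters of genes that start inside the kept run of chromosome 14, chosen after the values were seen. SEL1L starts close to the left edge of that run and points outward, so its body leaves the run. Each sequence is the 250 bases before a gene's start, 5′ to 3′ on the gene's strand, from RefSeq on the build GRCh38.p14, whereas bins and gene positions elsewhere are hg19. Capitals mark CG, which reads the same on both strands and cannot overlap itself.
DHX15, border gene, chr4:24584555-24584804, minus strand: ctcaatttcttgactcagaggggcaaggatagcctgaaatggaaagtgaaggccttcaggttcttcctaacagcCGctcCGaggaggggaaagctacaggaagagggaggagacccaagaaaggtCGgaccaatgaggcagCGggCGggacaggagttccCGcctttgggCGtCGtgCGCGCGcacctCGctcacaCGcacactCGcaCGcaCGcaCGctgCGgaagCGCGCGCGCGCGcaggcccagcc
LOC101927237, border gene at the right edge of a kept run, chr4:67422001-67422250, minus strand: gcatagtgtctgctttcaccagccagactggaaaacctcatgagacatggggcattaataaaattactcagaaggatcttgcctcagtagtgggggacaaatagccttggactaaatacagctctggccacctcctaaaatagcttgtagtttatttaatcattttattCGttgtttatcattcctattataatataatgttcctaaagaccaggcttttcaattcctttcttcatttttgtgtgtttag
CHCHD2, border gene, chr7:56106477-56106726, minus strand: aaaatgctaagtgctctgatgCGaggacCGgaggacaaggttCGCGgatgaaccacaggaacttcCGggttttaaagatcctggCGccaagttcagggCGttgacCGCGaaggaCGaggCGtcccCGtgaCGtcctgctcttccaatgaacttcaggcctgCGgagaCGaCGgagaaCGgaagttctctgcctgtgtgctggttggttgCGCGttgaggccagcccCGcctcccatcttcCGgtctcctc
LINC02308, border gene at the left edge of the chromosome 14 run, chr14:81450158-81450407, minus strand: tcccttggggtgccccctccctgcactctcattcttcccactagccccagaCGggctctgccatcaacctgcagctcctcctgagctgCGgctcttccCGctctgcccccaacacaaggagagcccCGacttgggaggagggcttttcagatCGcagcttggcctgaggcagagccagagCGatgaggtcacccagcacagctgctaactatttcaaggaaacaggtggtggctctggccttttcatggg
SPATA7, border gene at the right edge of the chromosome 14 run, chr14:88385407-88385656, plus strand: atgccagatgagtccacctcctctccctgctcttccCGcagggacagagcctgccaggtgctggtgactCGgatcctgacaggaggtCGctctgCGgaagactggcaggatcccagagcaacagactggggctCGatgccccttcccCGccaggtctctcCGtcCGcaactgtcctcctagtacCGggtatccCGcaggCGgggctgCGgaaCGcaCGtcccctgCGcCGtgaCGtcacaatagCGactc
GOT2, border gene at the left edge of a kept run, chr16:58734317-58734566, minus strand: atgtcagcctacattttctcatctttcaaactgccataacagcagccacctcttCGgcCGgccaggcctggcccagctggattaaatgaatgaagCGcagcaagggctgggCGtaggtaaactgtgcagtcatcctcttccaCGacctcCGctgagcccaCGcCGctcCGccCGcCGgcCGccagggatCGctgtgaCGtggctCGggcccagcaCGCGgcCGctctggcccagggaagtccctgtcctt
SEL1L, gene inside the chromosome 14 run, at its left end, chr14:81533854-81534103, minus strand: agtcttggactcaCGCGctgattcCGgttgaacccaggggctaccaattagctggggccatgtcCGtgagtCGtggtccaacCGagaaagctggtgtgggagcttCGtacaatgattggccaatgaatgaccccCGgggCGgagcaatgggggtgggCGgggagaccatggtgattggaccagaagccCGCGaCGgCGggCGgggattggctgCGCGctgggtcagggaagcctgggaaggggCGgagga
GPR65, gene inside the chromosome 14 run, toward its right end, chr14:88004885-88005134, plus strand: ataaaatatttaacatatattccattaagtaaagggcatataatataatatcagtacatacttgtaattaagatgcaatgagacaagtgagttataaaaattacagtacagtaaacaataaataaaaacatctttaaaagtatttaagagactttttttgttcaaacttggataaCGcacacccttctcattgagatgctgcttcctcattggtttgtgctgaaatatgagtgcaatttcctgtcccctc

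Among all 35116 promoters of the RefSeq table, the median was 11 CG in these 250 bases, with quartiles of 3 and 23. DHX15 held 24, a number that 23.7% of all promoters reached, and CHCHD2 held 21, reached by 30.2%. GOT2, SPATA7 and SEL1L held 18 each, reached by 36.8%. LINC02308 held 6, reached by 61.9%, and LOC101927237 and GPR65 held 1 each, reached by 93.9%. SEL1L, which starts just inside the kept run and points outward, thus had as many CG as SPATA7 outside it. It lies at the edge and does not stand for promoters deep in the domain. Only 201 of 396 border genes (50.8%) had a single matching entry in the table, so a comparison of promoter content between kept, border and farther bins was void and is not given.

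The 4487 kept bins formed 268 runs with a median length of 12 bins and 536 edges. At 119 edges the next bin was covered in no stage, a sharp edge. At 178 edges the next bin was covered in 1 or 2 stages and the one after in none, a stepped edge. The remaining 239 edges had no border bin within 2 bins. At stepped edges the bin between was covered in G1 at 97, in S at 77 and in G2 at 101 edges, counting each stage in which it lay. It was covered in G1 alone at 31, in G2 alone at 31 and in S alone at 19. Of the border bins, 119 lay 1 bin and 290 lay 2 bins from a kept bin, and 194 lay to the left, 212 to the right and 3 midway between 2 kept bins. These numbers follow from the lists that chose the bins and describe them only. No replicate spread can be given for lists deposited once per stage.

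Gene density was higher at the border than in kept bins. Border bins held 9.71 gene starts per Mb (95% exact Poisson interval 8.77 to 10.7, for counting error only), beside 2.96 (2.80 to 3.13) in kept bins and 5.98 (5.62 to 6.37) in bins covered in some stages. Bins of no stage that lay 3 to 5 bins away held 10.1 (9.55 to 10.7), and those over 10 bins away held 10.3 (10.2 to 10.5). The interval of the border thus overlapped those of bins farther out and lay above those of both covered classes. Gaps of the assembly were not removed, and bins in gaps hold no gene start, which lowers the density of their class. The share of gaps by class was not computed, so whether the border matches bins over 10 away was not settled. Border bins were denser than kept bins on 20 of 21 chromosomes. No test was run, since bins are not replicates and there was 1 list per stage.

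The pooled profiles of the 2 kinds of edge differed, but a gene cluster may weigh on that of sharp edges. At sharp edges the outermost kept bin held 8.39 starts per Mb (6.82 to 10.2) and the border bin next to it 9.45 (7.78 to 11.4), with overlapping intervals. At stepped edges the outermost kept bin held 2.87 (2.13 to 3.77), the bin covered in some stages 4.55 (3.61 to 5.66) and the border bin behind it 9.27 (7.91 to 10.8). The density thus rose over 2 bins at stepped edges, while at sharp ones the pooled values did not separate. The inner value at sharp edges came from 99 starts in 118 bins and may rest on a cluster. The fullest kept bin alone held 45 gene starts. On chromosome 15, SNORD115-45 to SNORD115-48, of a small nucleolar RNA family, start in a border bin next to a kept bin. Densities without such clusters were not computed, so whether density steps at sharp edges was not settled. The kind of edge was set by the coverage that chose the bins, and no test was run. Over all edges together, bins 2 away held 9.81 (8.70 to 11) and the outermost kept bin 4.43 (3.88 to 5.04), the second 3.83 (3.31 to 4.41) and the fifth 2.52 (2.02 to 3.11). Inside the domain the outermost bin was the densest of the 5, with an interval above that of the fifth. Its 234 starts may include the kept bin with 45, and the intervals do not cover such clusters. The order of the 5 is therefore not read as a gradient. No gene started in 187 of 409 border bins (45.7%), beside 80% of kept bins and 44.0% of bins 3 to 5 away. Border bins left of the domain held 10.4 starts per Mb (9.03 to 12) and those to its right 8.96 (7.73 to 10.3), with overlapping intervals. The density was 7.23 without symbols of the LOC, LINC, antisense, microRNA and small nucleolar kinds.

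**Figure D1:**
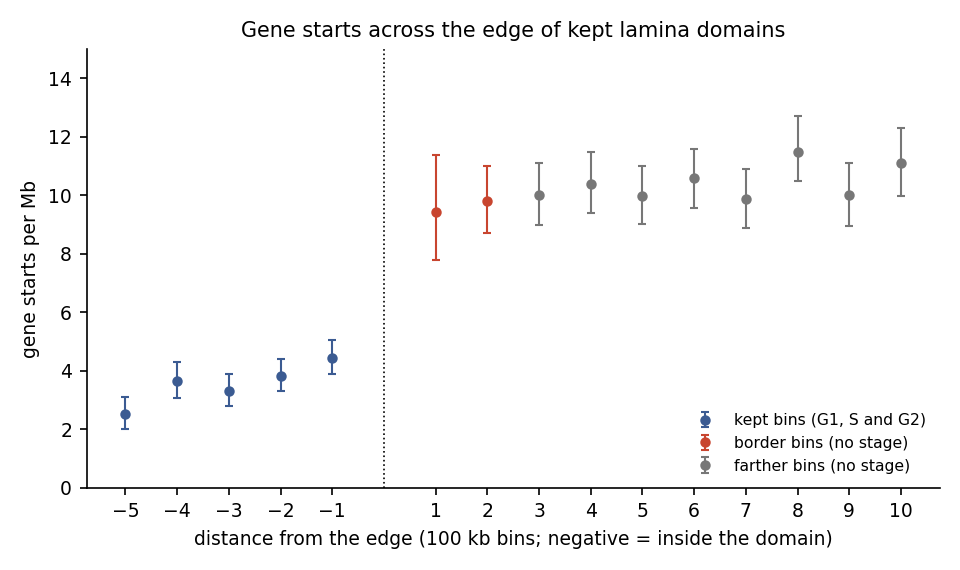
Gene starts per Mb (y axis) by distance from the edge of a kept domain in 100 kb bins (x axis, negative inside the domain), all edges pooled, with 95% exact Poisson intervals as bars. Kept bins lie between 2.52 and 4.43, border bins at 9.45 and 9.81, and farther bins of no stage between 9.87 and 11.5.

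The densest border bin, on chromosome 7 from 56100001 to 56200000 and 2 bins left of a kept bin, held 8 gene starts, 7 of them with more than 3 counts in at least 2 RNA libraries. Among them were PSPH, an enzyme of serine synthesis, CCT6A, a subunit of the cytosolic chaperonin, SUMF2, PHKG1 and CHCHD2, a mitochondrial protein. A bin on chromosome 20, from 30000001 to 30100000, held 6 starts, among them the beta-defensin genes DEFB121, DEFB122, DEFB123 and DEFB124, and none of the 6 passed 3 counts in 2 libraries. A bin on chromosome 1, from 12800001 to 12900000, held 5 starts, 3 of them of PRAMEF genes, and again none passed 3 counts in 2 libraries. Dense border bins were thus of both kinds, groups of genes with RNA and clusters where no gene passed 3 counts in 2 libraries.

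Gene families differed in where they lay. Of all placed genes, 1.54% started in border bins and 5.16% in kept bins. Zinc finger genes, which encode DNA-binding proteins and often sit in clusters of relatives, had 21 of 560 members in border bins (3.75%) and 68 in kept bins (12.1%). Olfactory receptors, the smell receptors of the nose, had 118 of 392 members in kept bins (30.1%) and 0 in border bins. Keratins and keratin-associated proteins had 30 of 150 in kept bins and 0 in border bins. Mitochondrial ribosomal proteins had 4 of 77 in border bins and 0 in kept bins. The 53 clustered protocadherins, 79 cytosolic ribosomal proteins and 93 potassium channels had no member there, nor had 14 genes of the lamina and inner nuclear membrane.

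Other families had a few border members. These were 3 of 136 homeobox transcription factors (NKX3-2, PBX4 and POU4F1), 3 of 349 solute carriers (SLC14A1, SLC17A6 and SLC38A7) and 1 of 36 proteasome subunits (PSMA2). Among RNA genes, 35 of 1483 long intergenic RNAs (2.36%), 18 of 1046 antisense RNAs (1.72%), 18 of 1627 microRNAs (1.11%) and 7 of 490 small nucleolar RNAs (1.43%) started in border bins. Members of a family often neighbour each other, so these counts are not independent and no enrichment was tested.

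Border genes pointed away from the domain slightly more often than toward it. Of 391 genes with a nearer kept side, 215 (55.0%, 95% Wilson interval 50 to 59.8) were transcribed away. In the bin next to the domain the share was 61.6% (69 of 112, 52.4 to 70.1), with 62.1% at right and 61.1% at left borders. In the bin 2 away it was 52.3% (146 of 279, 46.5 to 58.1), and 3 to 5 bins away 49.8% (565 of 1135, 46.9 to 52.7). The intervals for 1 and 2 bins away overlapped, and the difference between them was not tested. Neighbouring genes share promoters and clusters, so these intervals cover counting error only.

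The excess depended on how a gene was placed and counted. By gene midpoint in place of the start, the share was 49.9%. Inside the domain, 52.6% of genes in the outermost kept bin (46.2 to 58.9) and 58.2% in the second (51.1 to 65.0) pointed outward. Deeper in, the share was 49.1% (45.8 to 52.5). Clusters on 1 strand may weigh on these shares: 85 small nucleolar RNA genes started in kept bins. At the border, SNORD115-45 to SNORD115-48 all lie on the plus strand. Shares without such clusters were not computed, so whether an excess is confined to the border was not settled. On 12 chromosomes more border genes pointed away, on 7 more pointed toward, and on 2 the numbers were equal. Chromosome 19 contributed 18 of 21 genes pointing away (85.7%), and without it the share was 53.2% (48.2 to 58.3). Of 180 edges with genes, 82 had more genes pointing away, 62 more pointing toward and 36 equal numbers. The genes nearest to each edge, 1 per edge, showed no excess, with 86 of 180 pointing away (47.8%, 40.6 to 55.0). The next gene out from the edge pointed away in 62 of 101 cases (61.4%, 51.6 to 70.3).

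**Figure D2:**
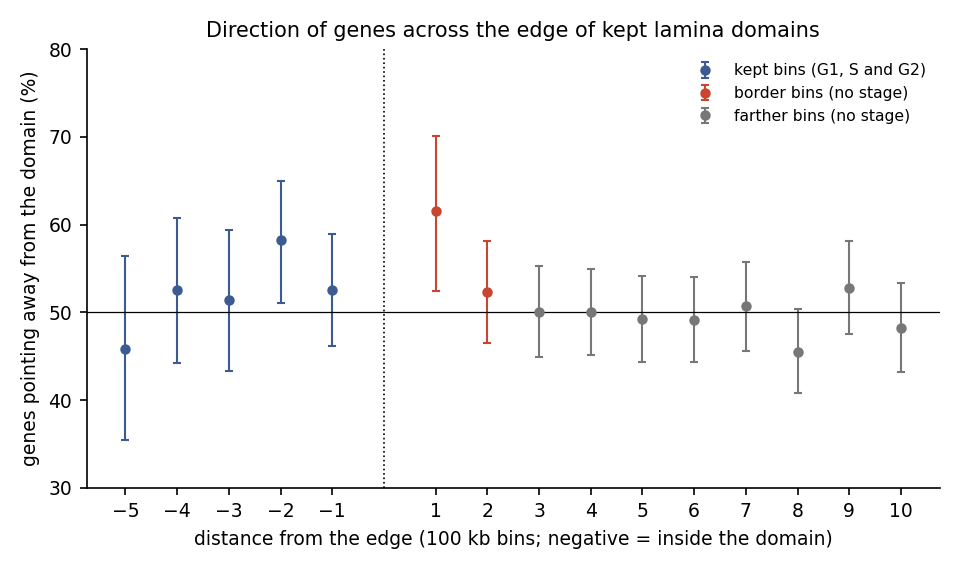
Share of genes transcribed away from the kept domain (y axis, percent) by distance from its edge in 100 kb bins (x axis, negative inside the domain), with 95% Wilson intervals as bars and a line at 50%. The bin next to the domain lies at 61.6%, the next at 52.3%, bins 3 to 10 away lie between 45.5% and 52.8%, and the second kept bin lies at 58.2%.

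The direction was also read for genes with and without RNA. Border genes with more than 3 counts in at least 2 libraries pointed away in 155 of 261 cases (59.4%, 53.3 to 65.2), and the others in 60 of 130 (46.2%, 37.8 to 54.7). In bins 3 to 5 away, the same groups stood at 50.4% (47.0 to 53.8) and 48.0% (42.4 to 53.6). Next to the domain, 48 of 71 genes with RNA pointed away (67.6%, 56.1 to 77.3). Among genes nearest to the edge, those with RNA pointed away in 57 of 103 cases (55.3%, 45.7 to 64.6) and the others in 29 of 77 (37.7%, 27.7 to 48.8). The intervals of border genes with and without RNA overlapped and the difference was not tested. Border genes with symbols of the non-coding kinds pointed away in 48 of 101 cases (47.5%), and the other border genes in 167 of 290 (57.6%).

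Some border genes reached back into the domain. Of 176 genes pointing toward it, 26 ran into a kept bin, with a median span of 187 kb beside 18.8 kb for the border genes that did not. A gene that starts outside can enter only when it points inward, so the direction of these 26 follows from their definition. The longest were ERC2, a scaffold protein of the presynaptic active zone that spanned 960.0 kb and entered 9 kept bins, KIAA1217 with 853.0 kb and 3 bins, and DISC1FP1 with 664.0 kb and 6 bins. Over all 396 border genes the median span was 21.4 kb, beside 14.5 kb in kept bins and 22.5 kb in bins 3 to 5 away. Genes pointing away had a median of 19.8 kb and those pointing toward 22.6 kb.

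The 5 longest kept runs show single edges. The runs on chromosome 3 from 73500001 to 81500000 and on chromosome 5 from 17200001 to 25200000, both of 8.0 Mb, had no gene start in a border bin on either side. The run on chromosome 16 from 58900001 to 66000000 had GOT2, the mitochondrial aspartate aminotransferase, starting 131740 bases outside its left edge and pointing away. The run on chromosome 14 from 82000001 to 88800000 was flanked by LINC02308, 83500 bases to the left, and by SPATA7, a protein of the photoreceptor cilium, 51988 bases to the right, both pointing away. The run on chromosome 4 from 61500001 to 68200000 had LOC101927237 at 87718 bases to its right, pointing toward it.

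The RNA libraries held 2321291 to 8557777 counts. HEK293FT identity was checked with markers. Summed over 5 markers of HEK293 lines the level was 309 to 1521 CPM (counts scaled to library size with TMM factors) and over 8 markers of colon epithelium 32.8 to 60.5. LMNB1, the gene carried by the construct, took 0.304% to 0.520% of counts in the fractions and 2.96% to 9.49% at the lamina. Its part in the lamina comparisons was not tested. In bulk RNA, fewer cells with an RNA and less RNA per cell cannot be told apart.

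Border genes were detected nearly as often as genes far from domains. More than 3 counts were found for 67.2% and 66.9% of the 396 border genes in nuclear RNA, 61.6% and 56.3% in cytosolic, 63.6% and 61.1% in the native lamina and 59.6% and 57.1% in the PFA lamina libraries. Genes of kept bins ranged from 13.5% to 19.3% over the same 8 libraries, genes of bins covered in some stages from 26.4% to 36.1%, and genes 3 to 5 bins away from 60.0% to 73.4%. In every library border genes stood far above kept genes and near, but below, the genes 3 to 5 bins away. Border genes pointing away were detected at 61.4% to 72.6% and those pointing toward at 48.3% to 60.2%, with the first share above the second in each of the 8 libraries, which share the same genes.

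**Figure D3:**
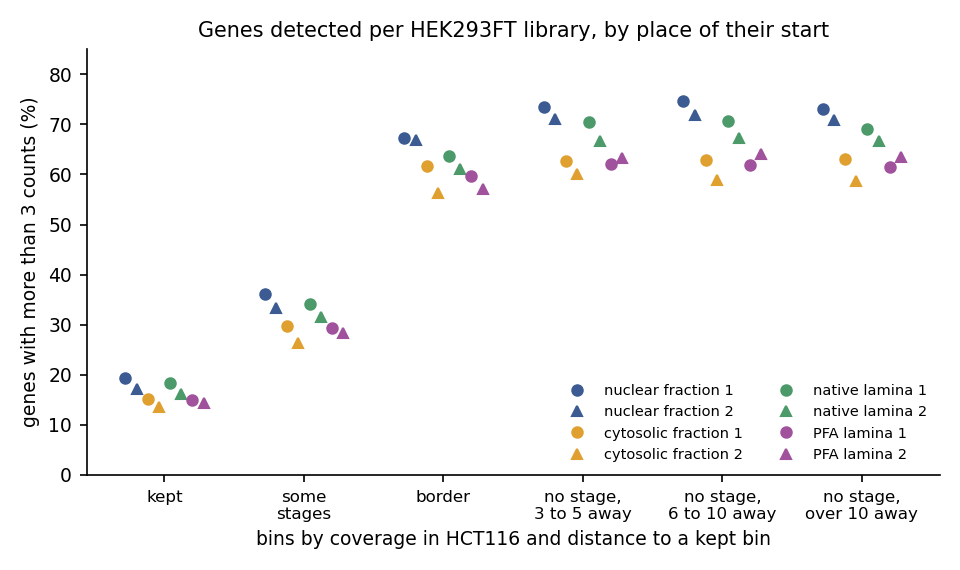
Share of genes with more than 3 counts (y axis, percent) in each of 8 HEK293FT libraries (points), by the place of the gene's start in the HCT116 domain map (x axis). Border genes lie between 56.3% and 67.2%, kept genes between 13.5% and 19.3%.

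Levels followed the same order. Among genes that passed the filter on low counts, the median CPM per exonic kb in a library ran from 4.35 to 5.66 for border genes, from 1.12 to 2.37 for kept genes and from 5.77 to 6.87 for genes over 10 bins away. The filter kept 240 of 396 border genes (60.6%), 209 of 1329 kept genes (15.7%) and 755 of 1147 genes 3 to 5 bins away (65.8%). Of the 156 border genes left out, 53 had no count in any library. All border genes together held 0.610% to 0.935% of a library's counts.

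The 6 border genes with the highest level per exonic kb were CHCHD2, CCT6A, DHX15, a helicase that takes spliceosomes apart, EIF3H, a subunit of a translation initiation factor, GOT2 and SRSF6, a splicing factor. CHCHD2 reached 35.5 and 63.7 CPM in the nuclear, 142 and 169 in the cytosolic, 77.3 and 28.6 in the native lamina and 147 and 77.6 in the PFA lamina libraries. Its cytosolic values lay above both nuclear values, while both lamina preparations spread over a wide range. DHX15, with 131 and 195 nuclear, 219 and 318 cytosolic, 222 and 215 native and 256 and 204 PFA lamina CPM, was not called in any comparison (nuclear against cytosolic log2 fold change -0.72 ± 0.31, SE, edgeR adjusted p = 0.0719).

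Between the nuclear and the cytosolic fraction, the shares of border genes called lay near those of all genes. Of 240 tested, 61 were higher in the nucleus and 43 lower (25.4% and 17.9%), beside 26.1% and 21.2% of all 16504 genes tested (edgeR's quasi-likelihood test at an adjusted p under 0.05). The median log2 fold change was 0.05 at the border and 0.13 over all genes. Genes of kept bins had a median of 0.79, with 75 of 209 higher and 21 lower. Border genes 1 bin away had a median of 0.62 with 19 of 64 higher and 10 lower, and those 2 bins away -0.06 with 42 of 176 higher and 33 lower. Upper-quartile scaling, which moved the median of all genes by 0.27, gave 76 higher and 32 lower. The labels do not say that the 2 libraries of a group came from separate cultures, so p-values measure the spread between these libraries only. Of the 104 calls, 39 held without each of the 8 libraries in turn, and the count higher fell to 31 and 37 without nuclear replicates 1 and 2 and to 37 and 40 without cytosolic replicates 1 and 2. The count lower fell to 20 and 27 without nuclear replicates 1 and 2 and to 26 without cytosolic replicate 2.

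**Figure D4:**
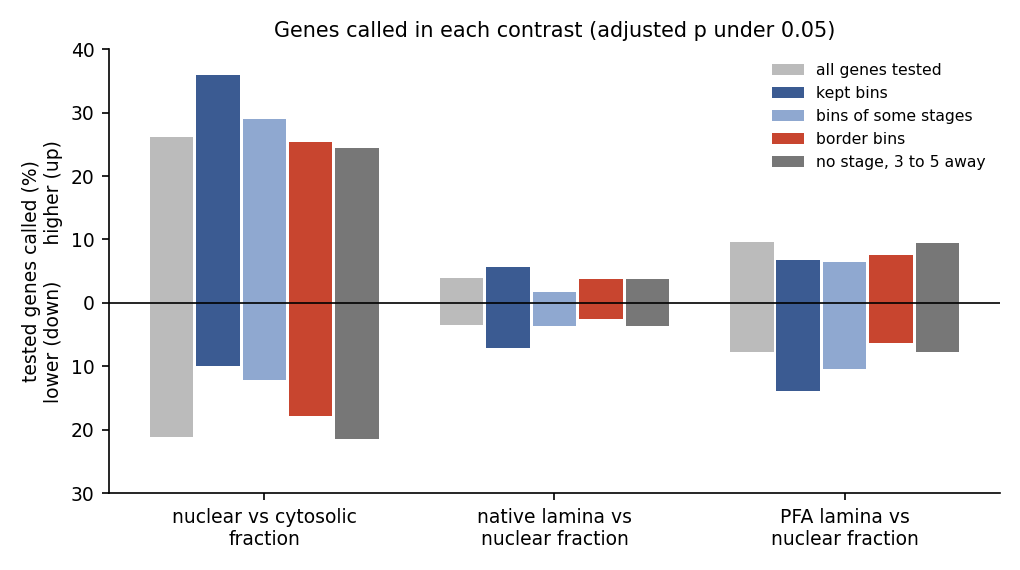
Share of tested genes called higher (upward bars) or lower (downward bars) at an adjusted p under 0.05 (y axis, percent) in 3 comparisons (x axis), by the place of the gene's start. In the comparison of nuclear with cytosolic RNA, border genes reach 25.4% higher and 17.9% lower, beside 26.1% and 21.2% of all genes tested.

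Genes most enriched in the nucleus at the border were PLAC4, LOC101929679 and EDAR, the receptor for ectodysplasin. PLAC4, a transcript known from placenta, on chromosome 21 from 42547158 to 42557166, lies within the span of BACE2, and intronic RNA of BACE2 cannot be told apart from it in these counts. It had 37.4 and 37.1 CPM in nuclear and 0.802 and 0.423 in cytosolic libraries, 5.81 ± 0.76 (SE) apart on the log2 scale (edgeR adjusted p = 0.000567). The cytosolic values rest on 6 and 2 counts, so the size of the difference is imprecise. EDAR had 12.3 and 10.1 nuclear CPM and 4 and 0 cytosolic counts (adjusted p = 0.00449, edgeR), and LOC101929679 had 9.18 and 8.93 nuclear CPM and 2 and 0 cytosolic counts (adjusted p = 0.0034, edgeR). For these last genes the cytosolic counts were too few for a fold change to be stated.

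Those lowest in the nucleus were LUZP6 and MTPN, which share all exons on chromosome 7 and cannot be told apart, and GOT2. MTPN, or myotrophin, had 47.5 and 53.9 CPM in the nuclear and 255 and 322 in the cytosolic libraries (log2 fold change -2.51 ± 0.36, edgeR adjusted p = 0.000654). GOT2 had 49.3 and 58.1 nuclear and 244 and 299 cytosolic CPM (-2.34 ± 0.38, edgeR adjusted p = 0.000896). Both cytosolic values of each gene lay far above both nuclear ones. Among the other highly expressed genes, CCT6A (-1.89 ± 0.35), EIF3H (-2.16 ± 0.41) and CHCHD2 (-1.65 ± 0.45) were lower in the nucleus and SRSF6 higher (1.29 ± 0.36), all called. The calls of CHCHD2 and SRSF6 were lost without 1 library: for CHCHD2 nuclear replicate 1 or cytosolic replicate 2, and for SRSF6 nuclear replicate 2 or cytosolic replicate 1 (edgeR adjusted p 0.0542 to 0.128).

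All 21 zinc finger genes of the border passed the filter, 11 were higher in the nucleus and 0 lower, beside 26.1% and 21.2% of all genes tested, with a median log2 fold change of 0.87 (edgeR). At an unadjusted p under 0.05, 11 were higher and 1 lower, and DESeq2 called 11 and 0. The count higher was 5 without nuclear replicate 1 or 2 and 2 without cytosolic replicate 1, with medians of 0.80, 0.85 and 0.68. ZNF714, on chromosome 19 from 21264953 to 21307883, had 132 and 125 CPM in the nuclear, 29.8 and 35.5 in the cytosolic, 38.1 and 40.8 in the native lamina and 32.3 and 39.7 in the PFA lamina libraries. Its nuclear values lay above all 6 others. ZNF721, on chromosome 4, had 101 and 86.1 nuclear, 15.4 and 21.6 cytosolic, 39.0 and 35.2 native and 24.4 and 28.7 PFA lamina CPM, with the nuclear values again highest, and its span overlaps ABCA11P. ZNF507 was not called and had 53.5 and 41.2 nuclear and 65.8 and 81.0 cytosolic CPM (edgeR adjusted p = 0.0697). Related zinc finger genes hold similar stretches, and reads that fit several of them could be split between genes.

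**Figure D5:**
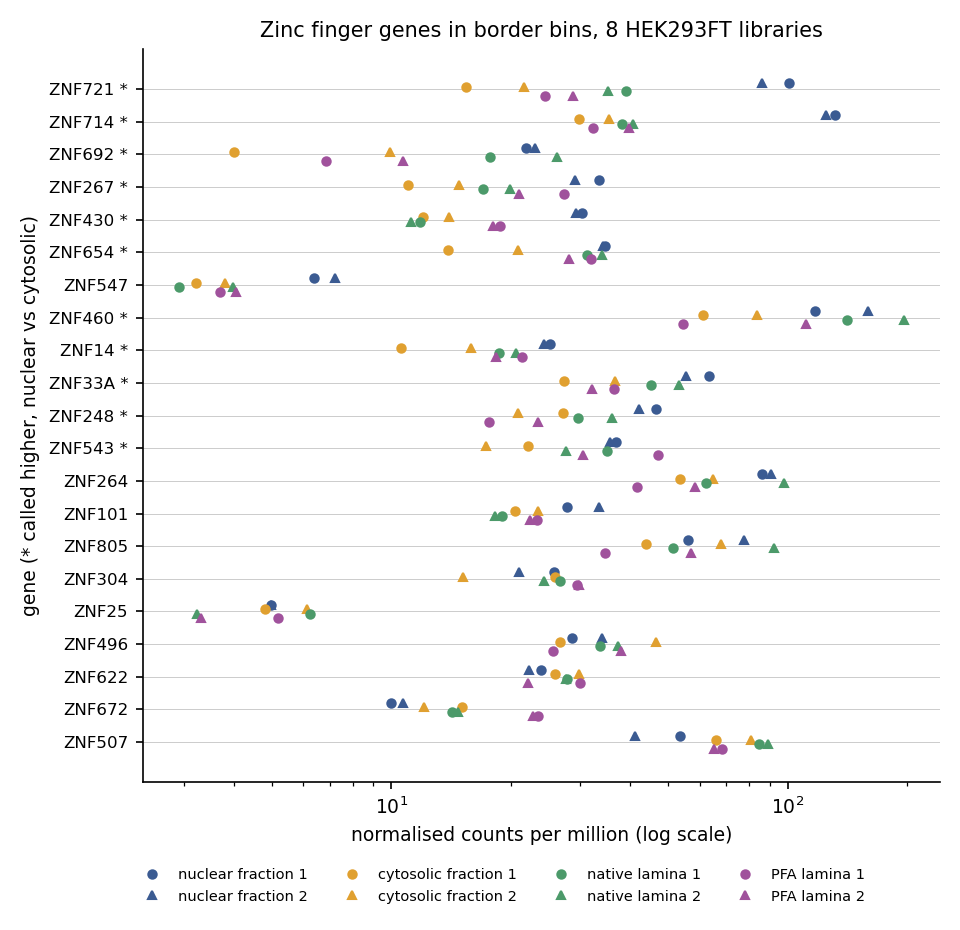
CPM (x axis, log scale) of the 21 zinc finger genes that start in border bins (y axis) in each of 8 libraries (points), ordered by the nuclear against cytosolic log2 fold change. The 11 genes marked with a star were called higher in the nucleus, and ZNF714 and ZNF721 are among those with both nuclear values above the other 6 libraries.

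Of the 4 mitochondrial ribosomal proteins of the border, 3 were lower in the nucleus and 0 higher, beside 21.2% and 26.1% of all genes tested. At an unadjusted p under 0.05, 4 were lower and 0 higher, and DESeq2 called 3 and 0. MRPL19 (log2 fold change -0.98 ± 0.33), MRPL39 (-0.99 ± 0.34) and MRPL32 (-1.23 ± 0.42) were lower in the nucleus, with edgeR adjusted p from 0.025 to 0.0293, while MRPL22 did not pass the test (-0.95 ± 0.42, edgeR adjusted p = 0.0798). The calls of MRPL19, MRPL39 and MRPL32 were lost without any 1 of the 4 nuclear and cytosolic libraries (edgeR adjusted p 0.0602 to 0.123), with upper-quartile scaling, where the median of the 4 genes was -0.72, and with a filter of at least 10 counts in every library, where it was -0.78. PSMA2, a proteasome subunit that starts beside MRPL32 on the other strand of chromosome 7, was lower too (-1.91 ± 0.42, edgeR adjusted p = 0.00315). Genes with symbols of the non-coding kinds were higher in the nucleus in 12 of 26 tested cases and lower in 0, with a median of 1.59, beside 26.1%, 21.2% and 0.13 for all genes tested. None reached an unadjusted p under 0.05 downward, and DESeq2 called 11 higher and 0 lower. The count higher was 7 without nuclear replicate 2. LINC00472 had 62.7 and 49.1 nuclear and 3.88 and 3.81 cytosolic CPM (3.86 ± 0.64, edgeR adjusted p = 0.000985). Only 26 of the 101 border genes with such symbols passed the filter, so the others are not described by these values. A gene could pass it through the counts of 1 group alone, so genes near 0 in the cytosol entered by their nuclear counts. With at least 10 counts in every library, 6 were tested, 1 was higher and 0 lower, with a median of 0.77. The split of 12 and 0 is therefore not read as a trait of these genes.

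Between native lamina and nuclear RNA, 9 border genes were higher and 6 lower of 240 tested (3.75% and 2.5%), beside 3.87% and 3.44% of all genes tested. The medians were -0.05 at the border and -0.07 over all genes. The shares lay near the background. The split depended on scaling: total counts alone gave 22 higher and 2 lower while moving the median of all genes by 0.29, and upper-quartile factors gave 5 and 7 with a shift of -0.15. None of the 15 calls held without each of the 8 libraries in turn. The counts were 0 and 0 without either nuclear replicate, 3 and 0 without native replicate 1, 0 and 1 without native replicate 2, 5 and 6 and 5 and 5 without cytosolic replicates 1 and 2, and 24 and 24 and 23 and 25 without PFA replicates 1 and 2. Where edgeR called 0 there, 15 to 24 genes had an unadjusted p under 0.05 in that direction.

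Between PFA lamina and nuclear RNA, 18 border genes were higher and 15 lower (7.5% and 6.25%), beside 9.63% and 7.81% of all genes tested. The medians were 0.01 and -0.04. Total counts alone gave 28 higher and 6 lower with a shift of 0.17 over all genes, and upper-quartile factors 11 and 21 with a shift of -0.16. None of the 33 calls held without each library in turn. The counts were 0 and 0 without nuclear replicate 1, with 21 genes each way at an unadjusted p under 0.05 (edgeR), 1 and 3 without nuclear replicate 2, 4 and 4 without PFA replicate 1 and 33 and 34 without PFA replicate 2. Without either native replicate, 10 genes were lower. Both lamina comparisons share the nuclear libraries.

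The border genes with the largest called rises at the lamina included MTPN, GOT2 and MAT2B. MTPN had 114 and 200 native and 205 and 130 PFA lamina CPM, between the nuclear and cytosolic values (native against nuclear 1.63 ± 0.35, edgeR adjusted p = 0.0212). GOT2 had 145 and 84.9 native and 250 and 126 PFA lamina CPM (PFA against nuclear 1.81 ± 0.37, edgeR adjusted p = 0.0106). MAT2B, the regulatory subunit of the enzyme that makes S-adenosylmethionine, had 12.5 and 11.3 nuclear, 55.1 and 53.1 cytosolic, 31.7 and 21.8 native and 51.9 and 33.1 PFA lamina CPM (PFA against nuclear 1.85 ± 0.33, edgeR adjusted p = 0.00752). Its lamina values, too, lay above both nuclear ones and at or below the higher cytosolic one.

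Another pair had lamina values above both fractions in part. SLU7, a splicing factor, had 17.3 and 17.9 nuclear, 35.0 and 40.6 cytosolic, 45.5 and 57.5 native and 46.2 and 27.2 PFA lamina CPM (native against nuclear 1.55 ± 0.32, edgeR adjusted p = 0.0181). GATA3, a transcription factor that starts 2 bins left of a domain and points toward it, had 7.63 and 7.56 nuclear, 19.9 and 14.0 cytosolic, 23.3 and 18.6 native and 40.8 and 24.3 PFA lamina CPM (PFA against nuclear 2.11 ± 0.37, edgeR adjusted p = 0.00723). For GATA3 both PFA values exceeded all 4 fraction values, and the native values did not separate from the cytosolic ones. For SLU7 both native values exceeded all 4 fraction values and the PFA values overlapped the cytosolic ones.

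Lower at the lamina than in the nucleus were ZNF714 (native -1.71 ± 0.27 and PFA -1.84 ± 0.27, edgeR adjusted p = 0.0073 and 0.00577), ZNF430 (native -1.37 ± 0.30, edgeR adjusted p = 0.0239) and PLAC4. PLAC4 had 7.80 and 7.51 native but 0.739 and 7.36 PFA lamina CPM, so the PFA libraries differed by a wide margin. The native log2 fold change of PLAC4 was -2.28 ± 0.57 (edgeR adjusted p = 0.0342), and -2.29 to -2.24 with 1 library left out. Its PFA log2 fold change was -3.40 ± 0.65 (edgeR adjusted p = 0.00891), -2.32 without PFA replicate 1 and -5.60 without PFA replicate 2. LINC00472 had 17.2 and 24.6 native and 2.96 and 22.4 PFA lamina CPM, and its PFA value of -2.24 ± 0.60 (edgeR adjusted p = 0.0253) was -1.30 without PFA replicate 1, where the call was lost (edgeR adjusted p = 0.0644), and -4.22 without PFA replicate 2. Each call of MTPN, GOT2, MAT2B, SLU7, GATA3, ZNF714, ZNF430, PLAC4 and LINC00472 just given for lamina RNA was lost without nuclear replicate 1. Without nuclear replicate 2, too, those of MTPN, GOT2, MAT2B, SLU7, ZNF430, LINC00472 and, in native RNA, ZNF714 and PLAC4 were lost. The call of GOT2 was also lost without PFA replicate 1, and those of MTPN and SLU7 without native replicate 2. In native RNA that of ZNF714 was lost without native replicate 1, and that of ZNF430 without either native replicate. The native call of PLAC4 was lost without either native replicate or cytosolic replicate 2.

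Of the 21 zinc finger genes, 3 were lower in native lamina than in nuclear RNA and 0 higher, with a median of -0.14, beside 3.44% and 3.87% of all genes tested (edgeR). In PFA lamina RNA 4 were lower and 1 higher, with a median of -0.42, beside 7.81% and 9.63% of all genes tested. In the native comparison 1 was higher and 5 lower at an unadjusted p under 0.05, and DESeq2 called 1 and 3. The native median was 0.14 with total counts alone, the opposite sign. No zinc finger gene was called lower in native RNA without nuclear replicate 1 or 2 or native replicate 1, and 1 without native replicate 2. In PFA lamina RNA 0 were called lower without nuclear replicate 1, 2 without nuclear replicate 2 or PFA replicate 1, and 6 without PFA replicate 2. Genes of the non-coding kinds had medians of -1.17 and -1.21, with 0 of 26 called either way in native RNA and 0 higher and 7 lower in PFA lamina RNA, to be read against the same shares of all genes (edgeR). At an unadjusted p under 0.05, 0 were higher and 11 lower in each comparison, and DESeq2 called 2 and 5 lower. Here, too, genes could pass the filter through their nuclear counts alone. With at least 10 counts in every library 6 were tested, 0 and 1 were called lower, and the medians were -0.3 and -0.38. The 7 calls in PFA lamina RNA became 0 without nuclear replicate 1 or 2 or PFA replicate 1, 4 without either native replicate and 11 without PFA replicate 2. In native RNA 12 were called lower without either PFA replicate. Over all 240 border genes tested the same medians were -0.05 and 0.01.

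The genes at the longest runs had little RNA, apart from GOT2. LINC02308 had no count in any library, where 0 counts allow up to 3. LOC101927237 had 5 and 7 nuclear counts, 0 and 0 cytosolic, 2 and 1 in native and 0 and 1 in PFA lamina libraries. SPATA7 had 5.91 and 5.67 nuclear, 5.88 and 9.94 cytosolic, 4.89 and 6.63 native and 7.58 and 4.41 PFA lamina CPM, with no group apart. Of the longest genes that entered a domain, ERC2 had 32.7 and 15.6 nuclear and 7.35 and 10.6 cytosolic CPM (1.44 ± 0.40, edgeR adjusted p = 0.011), a call lost without nuclear replicate 1 (0.81, edgeR adjusted p = 0.2) or cytosolic replicate 1. KIAA1217 had 23.5 and 15.8 nuclear and 15.1 and 9.73 cytosolic CPM, ranges that lay side by side (0.65 ± 0.38, edgeR adjusted p = 0.176), and DISC1FP1 had at most 1 count in any library.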

How the data were processed

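Domains were mapped from DNA at the lamina in HCT116 and RNA was counted in 8 HEK293FT libraries. The authors deposited integer counts per gene from featureCounts 1.5.2 on hg19 RefFlat genes, per the file headers, with strand ignored and reads that overlap several genes counted for each, so that antisense and overlapping genes cannot be separated. Exons of 76 border genes were shared with another gene row, and the spans of 133 overlapped one. The header of cytosolic replicate 1 names reads of that sample as input but an output named for nuclear replicate 1, and its file was used as labelled. The submitters' processing notes name TopHat2 2.1.1, Bowtie2 2.3.2, Subread 1.5.2 and bedtools 2.26.0. The deposited domain lists (start and end positions, no score used) hold 1 consensus per stage from a hidden Markov model, and how replicates were joined is not given in the sources used here.

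Bins, gene starts, densities and directions were computed in Python 3.11.15 with scipy 1.17.1, from gene rows on 1 chromosome and strand (690 of 27630 rows were not placed). Gaps of the hg19 assembly were not removed from the bins. All 8 libraries (2321291 to 8557777 counts) entered 1 edgeR 4.0.16 quasi-likelihood fit in R 4.3.3 with TMM scaling and filterByExpr, with Benjamini-Hochberg adjusted p under 0.05 over all genes tested. It was tested on simulated data. Alternatives covered scaling, filters, DESeq2 1.42.0, the libraries fitted, a replicate block, each library left out, and the rules for bins and genes. RNA was called present at more than 3 counts.

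Named genes were, per comparison, the 3 called border genes with the largest change each way (at least 300 exonic bases, and 50 counts per library where higher), the 6 with the highest level per kb, the genes at the 5 longest kept runs and the longest 3 entering a kept bin. MRPL genes, PSMA2, ZNF721, ZNF507, MIR155HG and PBX4 were named from the lists after their values were seen. Members and lists were chosen with earlier results of these data known. The 4 samples with contradictory cell line labels and the histone mark data were not analysed here.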

Additional observations from a re-analysis of the deposited data

How the results depend on the processing

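Values not given here moved by less than 1.5 times for counts of calls, or stayed within their counting interval for densities and shares: 14 and 16 of 21 settings for genes higher and lower in nuclear than in cytosolic RNA, 7 and 8 for native lamina against nuclear RNA, 12 and 11 for PFA lamina, and 9, 10 and 11 of 12 for density, border direction and edge gene direction. Leaving out 1 library at a time gave 31 to 71 higher and 20 to 61 lower border genes for nuclear against cytosolic, 0 to 24 and 0 to 25 for native lamina, and 0 to 33 and 0 to 34 for PFA lamina. The lone library left in a group was assumed to vary like the other groups. Where only bins 1 away were used, fewer genes entered, and the counts were 19 and 10, 2 and 1, and 4 and 5. With domains of G1 and G2 only (without S), more genes entered (417 tested in place of 240), and the counts were 116 and 77 for nuclear against cytosolic (27.8% and 18.5%), 25 lower for native, and 38 and 43 for PFA lamina. Without G1, 10 of 303 were lower for native lamina. Genes of at least 300 exonic bases that overlap no other (147 tested) gave 33 higher in the nucleus, 2 lower in native and 4 lower in PFA lamina RNA. For native lamina, total counts gave 22 and 2, upper-quartile factors 5 higher, no filter 21 and 15, DESeq2 15 higher, and a fit of only the 4 libraries 27 and 26. For PFA lamina, total counts gave 28 and 6, upper-quartile factors 11 higher, no filter 23 lower, and a fit of only the 4 libraries 5 and 4. The cause of the shifts with scaling, filter and fit was not tested.

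The border density was 8.45 starts per Mb without G2, 7.23 without symbols of the non-coding kinds and 6.52 for genes with RNA only. Border genes pointed away in 61.6% in bins 1 away and 49.9% by midpoint, and edge genes in 60.6% where only genes with RNA were used. A covered share of 1 base or of the whole bin gave the same bins. With a replicate block, 63 and 47, 13 and 9, and 19 and 19 genes were called higher and lower in the 3 comparisons. Same-numbered libraries did not deviate together throughout: the correlation of their deviations ran from -0.067 to 0.321, so the numbers were not taken as pairs. Precision is limited by 2 libraries a group and, for the bins, by 1 domain list per stage.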

Other observations

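On chromosome 19, 2 border bins held 5 gene starts each. The bin from 57700001 to 57800000, 1 bin right of a kept bin, held 5 starts, among them ZNF264, ZNF805 and ZNF460 and the kinase gene AURKC, and 4 of the 5 pointed away. The bin from 19700001 to 19800000, 2 bins left of a kept bin, held PBX4, LPAR2, GMIP, ATP13A1 and ZNF101, and again 4 of the 5 pointed away. All 10 genes passed 3 counts in at least 2 libraries.

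MIR155HG, the host transcript of a microRNA of immune cells, had 43 and 28 nuclear and 2 and 0 cytosolic counts (edgeR adjusted p = 0.00402), too few in the cytosol for a fold change to be stated. It shares exon positions with the gene of that microRNA. PBX4, a homeobox transcription factor, was higher in the nucleus as well (log2 fold change 1.72 ± 0.58, edgeR adjusted p = 0.0261), a call lost without any 1 of the 4 nuclear and cytosolic libraries (edgeR adjusted p 0.0666 to 0.18). Both were chosen after their values were seen.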
